A study of Mus musculus with 6 samples.

Results

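The mRNA levels of 8 genes whose products set the lifetime of cytokine mRNAs were examined in intraepithelial lymphocytes of the mouse small intestine. The genes were Zfp36, Zfp36l1, Zfp36l2, Zc3h12a, Zc3h12d, Rc3h1, Rc3h2 and Elavl1. They were taken by symbol from a table of 55487 genes, in which each symbol matched 1 entry, and all 8 were among the 14722 genes with enough reads to be tested. Total RNA was sequenced from 3 libraries of B220+CD3ε+CD45+ cells, which the submitters call X cells, and from 3 libraries of B220−CD3ε+CD45+ cells, which they call T cells. All cells were sorted live from the gut epithelium of wild-type C57BL/6J mice that carried no transgene or treatment named in the labels, and the sources used here state neither age nor sex. CD3ε belongs to the signalling chains of the T cell receptor, CD45 is a phosphatase of all leukocytes, and B220, one of its forms, is mostly used to mark B cells. No label says that the numbered replicates came from separate mice, so p-values measure the spread between libraries, which may be technical.

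Many cytokine mRNAs carry AU-rich elements or small stem-loops in the 3′ untranslated region (3′ UTR), and proteins that bind these signals decide how long the message lasts. Tristetraprolin, encoded by Zfp36, and its relatives ZFP36L1 and ZFP36L2 bind AU-rich elements and recruit deadenylases, whereas HuR, encoded by Elavl1, binds similar elements and tends to protect the mRNA. Regnase-1, encoded by Zc3h12a, is an endoribonuclease that cuts stem-loops, Zc3h12d encodes a relative with the same kind of nuclease domain, and the roquins encoded by Rc3h1 and Rc3h2 bind stem-loops and recruit the deadenylation machinery.

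The core signal that the ZFP36 proteins and HuR recognise is shown for 4 of the genes and for 3 cytokine messages described further on, because the decay proteins are themselves encoded by mRNAs that carry it. Each line is a stretch of the 3′ UTR of 1 GENCODE M21 coding transcript (mm10, written 5′ to 3′ on the transcript strand as DNA), and capitals mark copies of the 9-base element TTATTTATT, overlapping copies joined. The Tnf line is cut at 30 bases, inside its last copy.
Zfp36, chr7:28376951-28376979, minus strand: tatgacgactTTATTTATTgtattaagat
Zfp36l1, chr12:80108167-80108195, minus strand: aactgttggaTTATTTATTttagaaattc
Zfp36l2, chr17:84184914-84184942, minus strand: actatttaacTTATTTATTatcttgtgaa
Elavl1, chr8:4285782-4285810, minus strand: aaaaTTATTTATTTATTTATTTATTttta
Csf2, chr11:54247323-54247351, minus strand: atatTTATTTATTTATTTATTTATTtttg
Tnf, chr17:35199678-35199707, minus strand: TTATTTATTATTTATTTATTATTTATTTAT
Il22, chr10:118209873-118209901, plus strand: atatgtaagtTTATTTATTataagtatac

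At least 1 copy lay in the 3′ UTR of 6 of the 8 genes. Elavl1 had 8 copies, Zfp36, Zfp36l1, Zfp36l2, Rc3h1 and Rc3h2 had 1 each, and Zc3h12a and Zc3h12d had 0. Over the 11301 tested genes with an annotated 3′ UTR, 7.11% carried the element. A longer 3′ UTR has more room for a copy, and the median over these genes was 944 bases. Zfp36 had 774 bases and Zc3h12a 856, Zfp36l2, Zfp36l1 and Zc3h12d had 1822 to 2327, and Elavl1, Rc3h2 and Rc3h1 had 4218 to 7181. The part of length in the copies was not tested. The Elavl1 and Csf2 stretches hold the same run of overlapping copies. A match describes the letters of the transcript and does not show binding.

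Read depth ran from 11810859 to 39591312 counts in the B220+ libraries and from 11320363 to 18773165 in the B220− libraries. Levels are normalised counts (CPM), scaled to the size of each library, and differences are log2 fold changes of B220+ minus B220− cells tested with edgeR. Both groups carried the T cell genes of a 6-gene marker list at 4512.6 to 5025.8 CPM in summed level in B220+ cells and 4287.7 to 4367.8 CPM in B220− cells. The B cell genes Ms4a1 and Pax5 stayed under 1 CPM in every library, and the 6-gene B cell list summed to 31.61 to 35.04 CPM in B220+ cells and 24.88 to 33.41 CPM in B220− cells. A list of 5 genes of conventional CD4 and CD8αβ T cells (Cd4, Cd8b1, Cd5, Cd28 and Foxp3) summed to 41.39 to 62.52 CPM in B220+ cells and 511.6 to 873.1 CPM in B220− cells. This whole list thus moved with the groups, and in such bulk samples fewer cells of a type and less RNA per cell cannot be told apart. A mast cell and granulocyte list of 5 genes summed to 201.3 to 316.1 CPM in B220+ cells and 49.76 to 106.5 CPM in B220− cells. S100a8 and S100a9 were at 0 in every library, and Kit alone was at 197.6 to 311.8 CPM in B220+ cells and 44.7 to 96.87 CPM in B220− cells. Of the 3 tested genes of this list, 0 were higher and 1 lower in B220+ cells at an edgeR adjusted p under 0.05. The sum thus followed Kit and not the list as a whole. A list of 9 macrophage, monocyte and dendritic cell genes summed to 23.04 to 26.7 CPM in B220+ cells and 26.2 to 28.81 CPM in B220− cells. Its members did not all move alike. Of 5 tested, 0 were higher and 1 lower in B220+ cells at an edgeR adjusted p under 0.05. Among those too low to test, Siglech had 96 raw counts in B220+ cells and 4 in B220− cells. Clec9a had 9 and 0, Cd14 8 and 4, and Adgre1 5 and 15. A 10-gene epithelial list summed to 81.75 to 126.7 CPM in B220+ cells and 39.38 to 89.31 CPM in B220− cells. Its 9 tested genes had a median log2 fold change of −0.24, opposite to the sum, and 0 had an edgeR adjusted p under 0.05, against 11.1% of all tested genes. A 5-gene stromal and endothelial list, with Col3a1, Pdgfra and Cdh5 under 1 CPM in every library, summed to 34.31 to 39.96 CPM in B220+ cells and 30.61 to 32.04 CPM in B220− cells. A 4-gene plasma cell list, with Mzb1 at 0 in every library, summed to 98.53 to 202.5 CPM in B220+ cells and 76.23 to 716.9 CPM in B220− cells. The share of these differences in any result that follows was not tested.

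**Figure D1:**
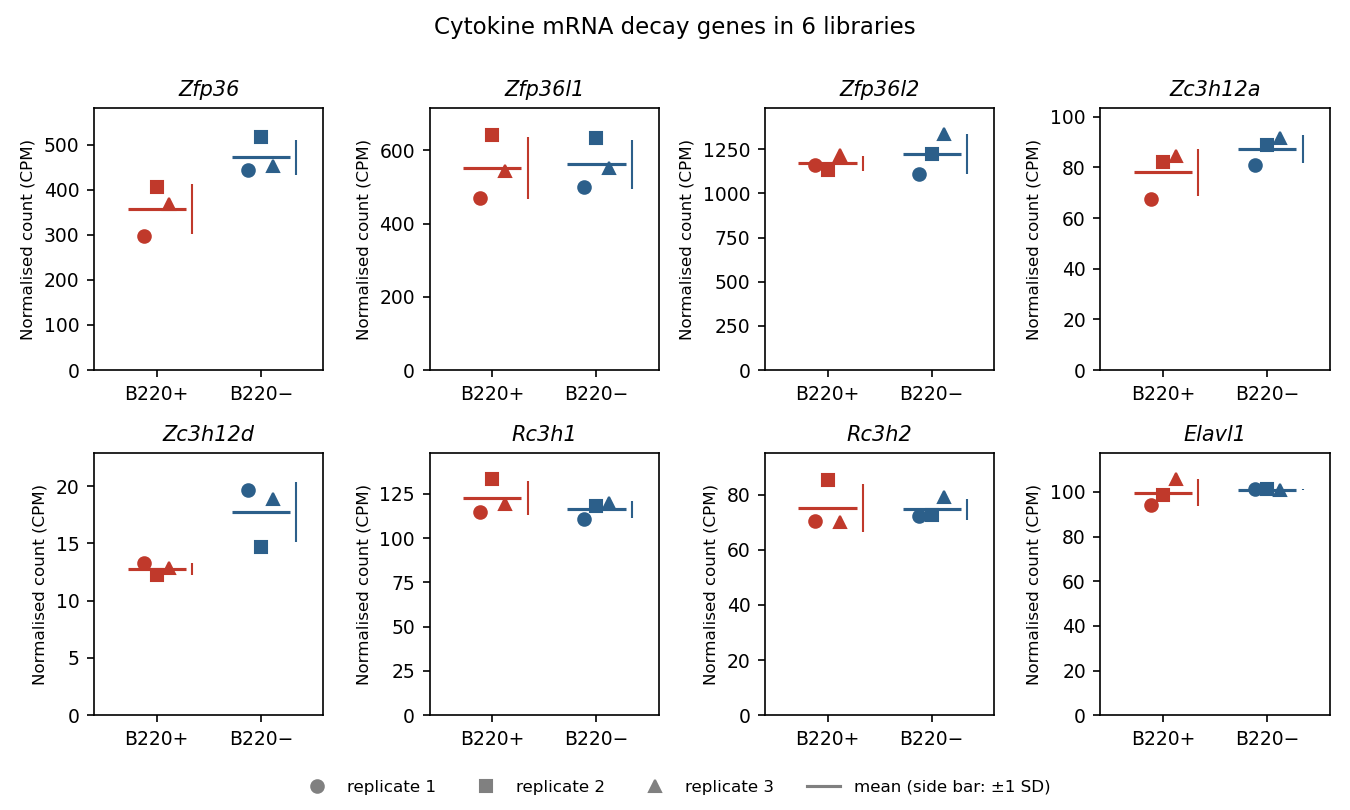
Normalised count in CPM (y axis, from 0) of each of the 8 genes in the 3 B220+ libraries (red, left) and the 3 B220− libraries (blue, right), with the symbol giving the replicate number, the horizontal line the mean and the side bar 1 SD. The B220+ and B220− points do not overlap for Zfp36 and Zc3h12d and overlap for the other 6 genes.

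Zfp36 and Zc3h12d were lower in B220+ cells, and no other gene of the 8 passed the test. This made 0 higher and 2 lower of 8 genes, against 5.58% of all tested genes higher and 5.56% lower (11.1% in either direction), and the median log2 fold change of the 8 was −0.04, against −0.01 over all tested genes. The same 2 genes were those whose libraries did not overlap between the groups. Among all tested genes, 14.1% did not overlap with B220+ cells higher and 13.9% with B220+ cells lower, 28.1% in all. With a replicate block in the fit the same 2 genes passed, against 17.5% of all tested genes (8.85% higher and 8.6% lower).

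Among the AU-rich element binders, Zfp36 (ENSMUSG00000044786, chr7:28376784-28380253, minus strand) had 297.0, 405.0 and 368.4 CPM in B220+ replicates 1 to 3, against 444.1, 517.0 and 453.6 CPM in B220− replicates 1 to 3. The highest B220+ library lay below the lowest B220− library. Zfp36 averaged 356.8 ± 54.9 CPM in B220+ cells and 471.6 ± 39.6 CPM in B220− cells (SD, n = 3 each), a log2 fold change of −0.40 (SE 0.11, 95% interval −0.64 to −0.16, edgeR adjusted p = 0.0402), or 1.32-fold lower in B220+ cells. The difference had the same sign in each pair of equal replicate number, at −0.58, −0.35 and −0.30 on the log2 scale. The log2 fold change stayed between −0.50 and −0.28 with any 1 library left out, but the edgeR adjusted p was 0.0662 to 0.118 without any library other than B220+ replicate 2, and 0.0182 without that one. With the replicate block the adjusted p was 1.31e-04.

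Zfp36l1 (ENSMUSG00000021127, chr12:80107754-80113013, minus strand) had 470.4, 641.1 and 544.1 CPM in B220+ cells, against 501.0, 632.1 and 550.6 CPM in B220− cells. Replicate 2 was the highest library and replicate 1 the lowest in both groups, which overlapped throughout. The log2 fold change of Zfp36l1 was −0.02 (SE 0.12, 95% interval −0.29 to 0.25, edgeR adjusted p = 0.944). Zfp36l2 (ENSMUSG00000045817, chr17:84183931-84187947, minus strand) had 1159.0, 1135.7 and 1215.9 CPM in B220+ cells, against 1112.7, 1223.1 and 1337.0 CPM in B220− cells. These values overlapped too, with a log2 fold change of −0.07 (SE 0.08, 95% interval −0.24 to 0.11, edgeR adjusted p = 0.721).

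Ratios within a library do not depend on its scaling. Zfp36 had 0.631, 0.632 and 0.677 counts per Zfp36l1 count in the B220+ libraries, against 0.886, 0.818 and 0.824 in the B220− libraries, so that all 3 B220+ ratios lay below all 3 B220− ratios. Per Zfp36l2 count, Zfp36 had 0.256, 0.357 and 0.303 counts in the B220+ libraries, against 0.399, 0.423 and 0.339 in the B220− libraries, and these ratios overlapped. Neither difference was tested. As a share of the 3 family members per exon length, Zfp36 made up 16.6 ± 1.46% in B220+ cells and 20.3 ± 1.25% in B220− cells (SD, n = 3 each). The share of Zfp36l2 was 53.7 ± 4.14% in B220+ cells and 51.7 ± 2.79% in B220− cells. These shares depend on the length taken for Zfp36, here 3470 bases of merged exons, whereas its longest transcript has 2790 bases. The shorter length would raise the share of Zfp36 in both groups.

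Among the nucleases, Zc3h12d (ENSMUSG00000039981, chr10:7832470-7870396, plus strand) had 13.3, 12.3 and 12.9 CPM in B220+ cells, against 19.6, 14.7 and 18.9 CPM in B220− cells. The B220+ libraries lay close together, and all were below the B220− libraries, of which replicate 2 was the nearest. Zc3h12d averaged 12.8 ± 0.53 CPM in B220+ cells and 17.7 ± 2.65 CPM in B220− cells (SD, n = 3 each), from 826 and 841 counts in all. Its log2 fold change was −0.47 (SE 0.13, 95% interval −0.76 to −0.19, edgeR adjusted p = 0.0370), or 1.39-fold lower in B220+ cells. Left-out libraries moved the log2 fold change between −0.59 and −0.38, and the edgeR adjusted p was 0.0732 to 0.156 without any library other than B220− replicate 2, and 0.00727 without that one.

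Zc3h12a (ENSMUSG00000042677, chr4:125118423-125127840, minus strand) had 67.5, 82.1 and 84.5 CPM in B220+ cells, against 81.0, 88.8 and 91.8 CPM in B220− cells. The groups overlapped, although within each replicate number the B220+ library was the lower one. The log2 fold change of Zc3h12a was −0.16 (SE 0.09, 95% interval −0.35 to 0.04, edgeR adjusted p = 0.355), an interval that spans both a decrease and no difference. With the replicate block the edgeR adjusted p of Zc3h12a was 0.0851.

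The roquin genes had nearly the same levels in both groups. Rc3h1 (ENSMUSG00000040423, chr1:160906418-160974978, plus strand) had 115.0, 133.3 and 119.0 CPM in B220+ cells, against 110.8, 118.3 and 119.8 CPM in B220− cells. Its log2 fold change was 0.08 (SE 0.07, 95% interval −0.08 to 0.24, edgeR adjusted p = 0.620). Rc3h2 (ENSMUSG00000075376, chr2:37370069-37422903, minus strand) had 70.3, 85.4 and 70.1 CPM in B220+ cells, against 72.4, 72.7 and 79.1 CPM in B220− cells, which gave a log2 fold change of 0.02 (SE 0.09, 95% interval −0.17 to 0.21, edgeR adjusted p = 0.945). For both genes B220+ replicate 2 was the highest of the 6 libraries, and the groups overlapped.

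Elavl1 (ENSMUSG00000040028, chr8:4285382-4325413, minus strand), the gene of the stabilising protein HuR, had 94.0, 98.8 and 106.0 CPM in B220+ cells, against 101.1, 101.1 and 100.7 CPM in B220− cells. The B220− libraries fell inside the range of the B220+ libraries. The log2 fold change of Elavl1 was −0.02 (SE 0.07, 95% interval −0.17 to 0.13, edgeR adjusted p = 0.911).

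**Figure D2:**
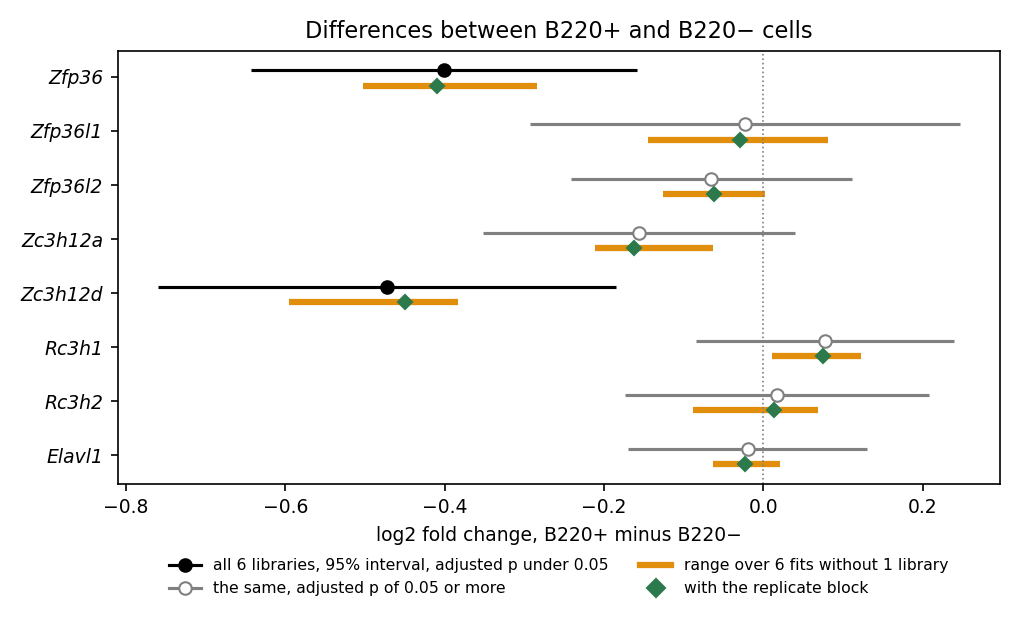
Log2 fold change of B220+ minus B220− cells (x axis) for each of the 8 genes, as the edgeR estimate with its 95% interval (black where the adjusted p was under 0.05, grey otherwise), the range over the 6 fits that each leave out 1 library (orange) and the value with the replicate block (green diamond). The intervals of Zfp36 and Zc3h12d lie below 0, from −0.64 to −0.16 and from −0.76 to −0.19, and those of the other 6 genes cross 0.

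Some reads could belong to neighbours, because the sources used here do not say whether the counting used strand. Zfp36 shares 125 exon bases with the antisense gene Gm44710, which had 1.53% as many counts. Zfp36l2 shares 105 exon bases with the antisense gene Gm36279 at 6.05% of its counts, and Elavl1 shares 204 with Ccl25 on the opposite strand at 6.26%. Genes that overlap Zc3h12d, Rc3h1 and Rc3h2 lie in their introns and reached at most 0.375% of their counts.

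Set against each other per kilobase of exon, the ZFP36 family stood far above the rest. Zfp36l2 reached 331.5 ± 11.7 CPM per kilobase in B220+ cells and 346.8 ± 31.8 in B220− cells, above 99.3% and 99.2% of the tested genes. Zfp36l1 followed at 184.6 ± 28.6 CPM per kilobase in B220+ cells and 187.7 ± 22.1 in B220− cells, and Zfp36 at 102.8 ± 15.8 in B220+ cells and 135.9 ± 11.4 in B220− cells. Zc3h12a came next at 27.1 ± 3.18 CPM per kilobase in B220+ cells and 30.3 ± 1.93 in B220− cells (SD, n = 3 each throughout). With merged exons as length, neighbours in this order down to Rc3h1 did not overlap in any library of either group. With the longest transcript, Zfp36 averaged 127.9 CPM per kilobase in B220+ cells and 169.0 in B220− cells. That B220− mean lay above Zfp36l1 in B220− replicate 1 (167.6), whose length was the same either way, so these neighbours then overlapped.

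The lower end of the order was less clear. Rc3h1 had 10.8 ± 0.85 CPM per kilobase in B220+ cells and 10.3 ± 0.43 in B220− cells, and Elavl1 had 9.61 ± 0.59 in B220+ cells and 9.75 ± 0.02 in B220− cells, with overlapping libraries in B220+ cells. Rc3h2 had 3.84 ± 0.45 CPM per kilobase in B220+ cells and 3.81 ± 0.19 in B220− cells. Zc3h12d had 3.13 ± 0.13 CPM per kilobase in B220+ cells, below every Rc3h2 library there, and 4.33 ± 0.65 in B220− cells, where the libraries of Zc3h12d and Rc3h2 overlapped. These places depend on the exon length used: with the longest transcript in place of the merged exons, Rc3h2 reached 8.41 CPM per kilobase in B220+ cells and 8.35 in B220− cells, and Elavl1 17.3 in B220+ cells and 17.6 in B220− cells, above Rc3h1.

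**Figure D3:**
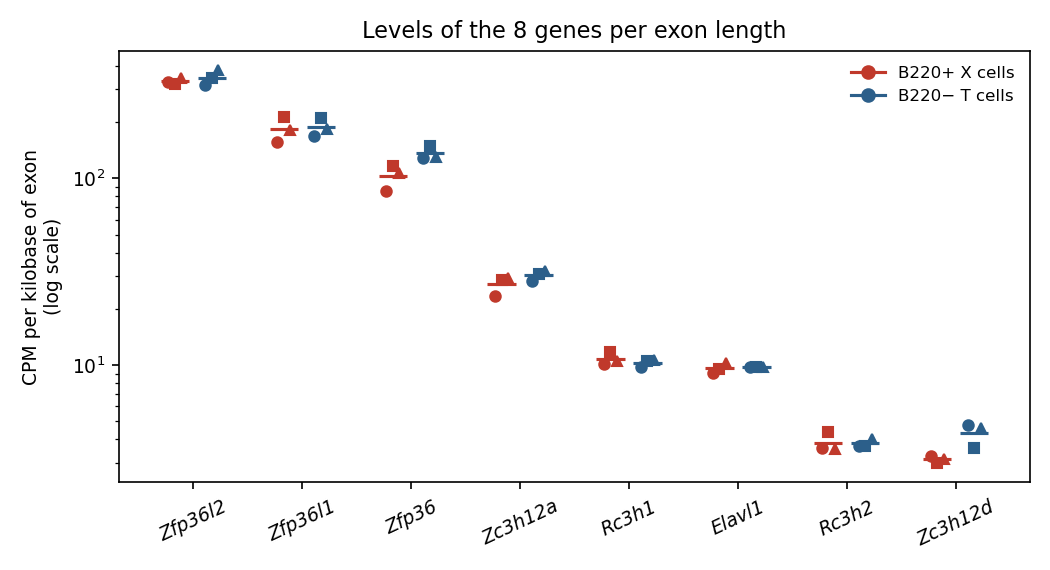
CPM per kilobase of merged exon (log axis) of the 8 genes, with 1 point per library (circle, square and triangle for replicates 1 to 3), B220+ cells in red and B220− cells in blue, and lines at the group means. The means span from 331.5 for Zfp36l2 to 3.13 for Zc3h12d in B220+ cells and from 346.8 for Zfp36l2 to 3.81 for Rc3h2 in B220− cells.

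The promoters of the 2 genes that differed are shown because one holds known motifs of the 6 searched and the other holds none of them. Promoters of 7 of the 8 genes were matched by symbol in RefSeq (GRCm38.p6; 250 bases before to 50 bases after the annotated start), and Zfp36l2 had no entry. Both strands were searched for these motifs, namely the CArG box bound by serum response factor, GCGNGGGCG bound by the EGR factors, TGANTCA bound by AP-1, TTCNNNGAA bound by STAT factors, TATAAA, and the NF-kappaB site. Capitals in the lines below mark the matches, and no 2 matches overlap.
Zfp36 promoter, chr7:28379179-28379478, minus strand: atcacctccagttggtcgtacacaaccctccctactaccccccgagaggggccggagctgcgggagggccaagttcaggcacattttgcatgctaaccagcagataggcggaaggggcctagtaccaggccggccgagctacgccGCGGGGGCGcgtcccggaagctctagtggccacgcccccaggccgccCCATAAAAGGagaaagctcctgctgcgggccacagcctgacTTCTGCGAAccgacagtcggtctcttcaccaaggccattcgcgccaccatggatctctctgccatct
Zc3h12d promoter, chr10:7832220-7832519, plus strand: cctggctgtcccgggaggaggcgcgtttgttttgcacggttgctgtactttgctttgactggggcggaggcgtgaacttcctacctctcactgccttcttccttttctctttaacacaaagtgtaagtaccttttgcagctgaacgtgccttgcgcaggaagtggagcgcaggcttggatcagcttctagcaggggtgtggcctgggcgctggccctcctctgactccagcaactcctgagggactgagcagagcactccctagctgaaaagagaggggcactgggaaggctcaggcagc

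The Zfp36 window lies inside the deposited gene model, which reaches further upstream. It held a CArG box whose first base lies at −58 from the start, an EGR motif at −105 and a STAT motif at −17. Of all 32851 promoters in the table, 1.63% held a CArG box, 5.55% GCGNGGGCG and 8.3% TTCNNNGAA. The Zc3h12d window held none of the 6 motifs. Zfp36l1 had TGATTCA at −129 and TATAAA at −29, and Rc3h1 had TGACTCA at −133, against 7.81% of promoters with TGANTCA and 13.6% with TATAAA. The windows of Zc3h12a, Rc3h2 and Elavl1 had no match, and 4.51% of all promoters held the NF-kappaB site. A match is not shown to be a bound site, and its absence from a window says nothing about the factor.

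Genes whose log2 CPM followed that of each gene most closely over the 6 libraries were sought among the 9376 genes with a mean of at least 10 CPM, as a description in which libraries, depth and group are shared. Zfp36 was followed by Bag3, a co-chaperone of HSP70 (Pearson r = 0.997), Alkbh8 (0.994) and Kat2b (0.993). Zc3h12a was followed by Fosb, an AP-1 subunit (0.989), Rbm7 (0.988) and Tmem222 (0.987). Zc3h12d was followed by Pgrmc2 (0.997), Mapk8 (0.995) and Furin (0.993), and Elavl1 by Hars2 (0.992), Zfp141 (0.977) and Pop5 (0.976). Among the 8 genes, the closest pairs were Zfp36 with Zc3h12a (r = 0.853) and Rc3h1 with Rc3h2 (r = 0.824).

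Zfp36 is an immediate early gene and Zc3h12a is also induced early after stimulation, and such genes respond to cell isolation too, so a list of 23 immediate early and isolation-responsive genes was set beside them. Of these, 2 were higher and 5 lower in B220+ cells, against 11.1% of all tested genes in either direction, with a median log2 fold change of −0.27. With the replicate block 5 were higher and 14 lower, against 17.5% of all tested genes. The lower ones were Dusp2 and Dusp1, phosphatases of MAP kinases, Nfkbia, an inhibitor of NF-kappaB, the activation marker Cd69 and the factor Klf6, and the higher ones were the AP-1 subunit Fosl2 and Egr3.

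Dusp2 had 55.6, 77.0 and 61.0 CPM in B220+ cells, against 148.4, 142.8 and 136.3 CPM in B220− cells (log2 fold change −1.13, SE 0.11, edgeR adjusted p = 7.24e-05). Nfkbia had 177.1, 193.8 and 209.5 CPM in B220+ cells, against 275.9, 255.9 and 270.8 CPM in B220− cells (log2 fold change −0.47, SE 0.07, edgeR adjusted p = 0.00121). Cd69 had 317.0, 393.4 and 376.2 CPM in B220+ cells, against 532.3, 488.9 and 480.0 CPM in B220− cells (log2 fold change −0.47, SE 0.09, edgeR adjusted p = 0.00325). In each of these 3 genes all B220+ libraries lay below all B220− libraries. Fosl2 went the other way, with 580.7, 613.8 and 590.4 CPM in B220+ cells, against 300.6, 447.0 and 380.8 CPM in B220− cells (log2 fold change 0.66, SE 0.13, edgeR adjusted p = 0.00955, and 0.0583 without B220+ replicate 2).

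The calls of Dusp1, Klf6 and Egr3 were less stable. That of Dusp1 was lost without B220+ replicate 1 or 2 or B220− replicate 2, that of Klf6 without any 1 library, and that of Egr3 without any 1 library other than B220− replicate 2. Their log2 fold changes with all libraries were −0.27, −0.27 and 0.48, with edgeR adjusted p of 0.0207, 0.0413 and 0.0344. Of the most abundant genes of the list, Jun had 1439.4, 2344.6 and 1668.3 CPM in B220+ cells, against 1834.5, 2819.3 and 1923.6 CPM in B220− cells, with an edgeR adjusted p of 0.641, and of 0.00489 with the replicate block. Replicate 2 was the highest library of Jun in both groups, as it was for Zfp36 and Zfp36l1. Junb had an edgeR adjusted p of 0.379, and Rgs1 of 0.105, and of 0.0295 with the replicate block and 0.0128 with DESeq2. Overlapping genes on the opposite strand had 14.2% as many counts as Jun and 11.9% as many as Dusp1. How far cell isolation set these levels was not tested.

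Few genes of the machinery to which the 8 proteins hand their targets passed the test, which 11.1% of all tested genes passed in either direction. Of 20 tested genes of deadenylation, 1 was higher in B220+ cells and 0 were lower, with a median log2 fold change of −0.01. The gene was Pabpc4, which encodes a cytoplasmic poly(A)-binding protein, with 243.0, 244.7 and 248.6 CPM in B220+ cells, against 158.5, 207.0 and 161.4 CPM in B220− cells (log2 fold change 0.48, SE 0.09, edgeR adjusted p = 0.00596). With the replicate block 2 were higher and 1 lower, against 17.5% of all tested genes. The abundant genes Btg1, Pabpc1 and Btg2 had edgeR adjusted p of 0.416, 0.612 and 0.502.

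None of 21 tested genes of decapping and 5′ to 3′ decay was called by edgeR or by DESeq2, and 1 had an unadjusted p under 0.05. None of 16 tested genes of the exosome and SKI complex was called by either tool, and 0 had an unadjusted p under 0.05, against 22.4% of all tested genes. The median log2 fold changes of these lists were −0.04 and −0.03. The decapping activator Ddx6 had 309.2, 329.5 and 307.3 CPM in B220+ cells, against 342.2, 331.6 and 312.1 CPM in B220− cells (95% interval of the log2 fold change −0.20 to 0.09). Upf1 and Edc4 had intervals of −0.17 to 0.11 and −0.22 to 0.16. The SKI complex genes Skiv2l and Wdr61 had intervals of −0.18 to 0.12 and −0.40 to 0.17, and the exosome gene Exosc10 of −0.30 to 0.03. Overlapping genes on the opposite strand had 174% as many counts as Wdr61 and 19.9% as many as Skiv2l.

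Of 21 other tested genes of RNA-binding proteins that direct decay or oppose it, 0 were higher in B220+ cells and 1 was lower. All tested genes had 11.1% called in either direction. The median log2 fold change of the 21 was −0.05. The called gene was Arid5a, whose product competes with Regnase-1 for stem-loops, with 131.1, 139.5 and 150.5 CPM in B220+ cells, against 201.7, 164.0 and 188.7 CPM in B220− cells (log2 fold change −0.40, SE 0.08, edgeR adjusted p = 0.00852). All B220+ libraries of Arid5a lay below all B220− libraries. With the replicate block 2 of the 21 genes were higher and 1 lower, against 17.5% of all tested genes. Ybx1, Zc3hav1 and Hnrnpl, the most abundant genes of the list, did not pass the test. Of 27 entries, 6 were too low to test, among them the paralogues Elavl2, Elavl3 and Elavl4 with 0 counts in all libraries and Zfp36l3 with 1 count in B220+ cells and 0 in B220− cells.

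Among 17 genes of enzymes and adaptors that act on the 8 proteins, 1 was higher and 3 were lower in B220+ cells, against 11.1% of all tested genes in either direction. Their median log2 fold change was 0.02. With the replicate block 3 were higher and 3 lower, against 17.5% of all tested genes. Malt1 encodes a protease that is active downstream of the T cell receptor and cleaves Regnase-1 and the roquins. It had 110.0, 112.7 and 107.4 CPM in B220+ cells, against 141.5, 130.5 and 135.1 CPM in B220− cells (log2 fold change −0.30, SE 0.07, edgeR adjusted p = 0.00973). The groups did not overlap, and Malt1 kept an adjusted p under 0.05 with any 1 library left out.

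Mapkapk3 encodes one of the kinases downstream of p38 that phosphorylate tristetraprolin. It had 131.1, 114.2 and 120.9 CPM in B220+ cells, against 206.1, 159.3 and 180.3 CPM in B220− cells (log2 fold change −0.58, SE 0.09, edgeR adjusted p = 0.00160). Ppp2cb, a catalytic subunit of the phosphatase PP2A that removes such phosphates, had 92.3, 92.4 and 94.4 CPM in B220+ cells, against 80.5, 77.7 and 75.2 CPM in B220− cells. Its log2 fold change was 0.26 (SE 0.07, edgeR adjusted p = 0.0252), a call lost, at an adjusted p of 0.0619 to 0.11, without any 1 library other than B220− replicate 1. The other subunits Ppp2ca, where an opposite-strand gene had 10.5% as many counts, and Ppp2r1a had edgeR adjusted p of 0.899 and 0.860, and the kinase gene Ikbkb of 0.564.

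**Figure D4:**
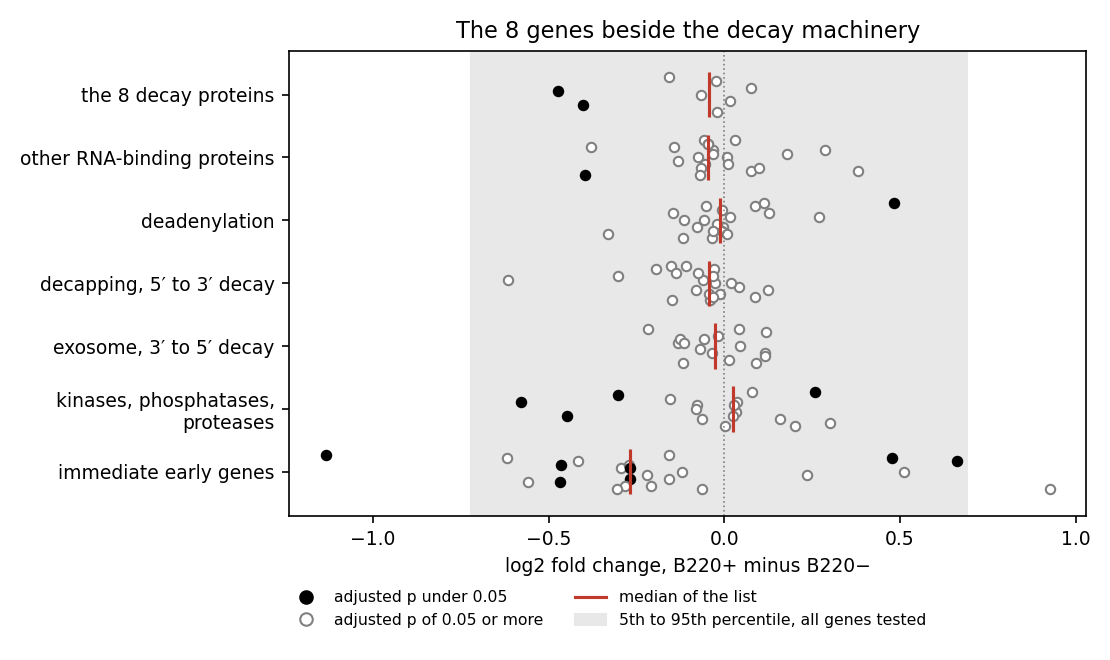
Log2 fold change of B220+ minus B220− cells (x axis) of every tested gene of the 8 decay proteins and of 6 lists around them (down the page), filled where the edgeR adjusted p was under 0.05, with the list median in red and the 5th to 95th percentile of all tested genes (−0.72 to 0.69) in grey. The 2 called decay proteins lie inside the grey band, and the medians range from −0.27 for the immediate early genes to 0.02 for the kinases, phosphatases and proteases.

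Targets of these proteins, as reported in other cells, included called genes in both directions. Of 23 reported targets of the ZFP36 family, 16 could be tested, of which 1 was higher and 5 were lower in B220+ cells. Over all tested genes 11.1% were called in either direction. The median log2 fold change of the 16 was −0.52. With the replicate block 3 of the 16 were higher and 7 lower, against 17.5% of all tested genes. The 9-base element lay in the 3′ UTR of 12 of the 23 and of 9 of the 16 tested. The remaining 7 had at most 32 counts in a group.

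Csf2, which encodes the cytokine GM-CSF and carries 4 overlapping copies of the element, was the one that was higher. It had 6.1, 11.99 and 9.607 CPM in B220+ cells, against 2.098, 2.15 and 1.048 CPM in B220− cells (log2 fold change 2.36, SE 0.30, edgeR adjusted p = 4.91e-04). Every B220+ library was above every B220− library, a 5.14-fold difference. The opposite-strand gene Gm12223 overlaps Csf2 and had 62% as many counts, so part of the Csf2 counts is uncertain.

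Tnf, with 5 copies in its 3′ UTR, had 6.862, 17.07 and 10.95 CPM in B220+ cells, against 31.04, 43.17 and 35.97 CPM in B220− cells (log2 fold change −1.59, SE 0.34, edgeR adjusted p = 0.0474). The groups did not overlap, but the adjusted p was 0.119 to 0.164 without B220+ replicate 3 or any 1 of the B220− libraries, and 0.123 with no filter on low counts. Ifng had 31.4, 38.5 and 37.9 CPM in B220+ cells, against 98.1, 86.7 and 85.3 CPM in B220− cells (log2 fold change −1.32, SE 0.09, edgeR adjusted p = 3.21e-06). The chemokine gene Ccl3 had 119.6, 121.4 and 101.9 CPM in B220+ cells, against 160.5, 173.1 and 152.2 CPM in B220− cells (log2 fold change −0.50, SE 0.08, edgeR adjusted p = 0.00150).

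Il17a and Il22, cytokines of helper and innate-like T cells, were lower in B220+ cells by the largest ratios of the list. Il17a had 3 counts in the B220+ libraries together and 1057 in the B220− libraries, a ratio of 485.3 in favour of B220− cells (95% counting interval 165.6 to 2357.2). Il22 had 2 counts in B220+ cells and 394 in B220− cells, a ratio of 271.4 (95% counting interval 74.63 to 2248.6). These intervals cover counting error only. The abundant targets Bcl2, Notch1 and Myc did not pass the test, and Bcl2 had 361.1, 408.1 and 412.3 CPM in B220+ cells, against 167.0, 281.1 and 256.1 CPM in B220− cells (edgeR adjusted p = 0.0830, and 0.00286 with the replicate block, 0.00871 with DESeq2 and 0.0371 with no filter on low counts).

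Of 18 reported targets of Regnase-1 or the roquins, 14 could be tested, of which 1 was higher and 7 were lower in B220+ cells. This list overlaps that of the ZFP36 family, and Tnf counts among the lower genes of both. Over all tested genes 11.1% were called in either direction. The median log2 fold change of the 14 was −0.73. Several of the 7 encode activation or costimulation proteins of T cells, and the list of conventional T cell genes given above moved with them. Icos had 6.69, 4.83 and 6.22 CPM in B220+ cells, against 79.5, 43.1 and 52.6 CPM in B220− cells (log2 fold change −3.36, SE 0.30, edgeR adjusted p = 0.00162). Il2ra, the alpha chain of the IL-2 receptor, had 1.69, 2.16 and 2.61 CPM in B220+ cells, against 9.85, 8.21 and 14.3 CPM in B220− cells (log2 fold change −2.30, SE 0.24, edgeR adjusted p = 6.22e-05). In both genes the groups lay far apart.

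The factor Irf4 had 26.3, 26.0 and 22.8 CPM in B220+ cells, against 89.3, 66.3 and 81.9 CPM in B220− cells (log2 fold change −1.66, SE 0.11, edgeR adjusted p = 4.22e-06). Nfkbid, a nuclear regulator of NF-kappaB, had 97.4, 140.4 and 121.0 CPM in B220+ cells, against 185.1, 214.3 and 209.9 CPM in B220− cells (log2 fold change −0.76, SE 0.12, edgeR adjusted p = 0.00466). Tnfrsf4, which encodes OX40, had a log2 fold change of −1.50 (edgeR adjusted p = 4.16e-04). Ctla4 had 120.6, 99.2 and 121.2 CPM in B220+ cells, against 351.7, 198.0 and 264.7 CPM in B220− cells (edgeR adjusted p = 0.0333, 0.0946 to 0.114 without any 1 of the B220+ libraries or B220− replicate 3, and 0.0821 with no filter on low counts).

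Foxo1, the one target that was higher, had 251.4, 251.0 and 269.4 CPM in B220+ cells, against 197.6, 219.7 and 203.9 CPM in B220− cells (log2 fold change 0.31, SE 0.07, edgeR adjusted p = 0.00959, and 0.055 without B220− replicate 3). The abundant targets Nfkbiz and Rel did not pass the test, with 95% intervals of −0.52 to 0.08 and −0.15 to 0.26, and Nfkbiz had an edgeR adjusted p of 0.393 without and 0.0141 with the replicate block (log2 fold change −0.24). Overlapping genes on the opposite strand had 20.2% as many counts as Foxo1, 13.1% as many as Bcl2 and 11.1% as many as Notch1, and a gene on the same strand had 18.1% as many as Ifng. Counts of mRNA in these libraries do not separate synthesis from decay, so neither the activity of the 8 proteins nor the half-life of any message was measured.

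**Figure D5:**
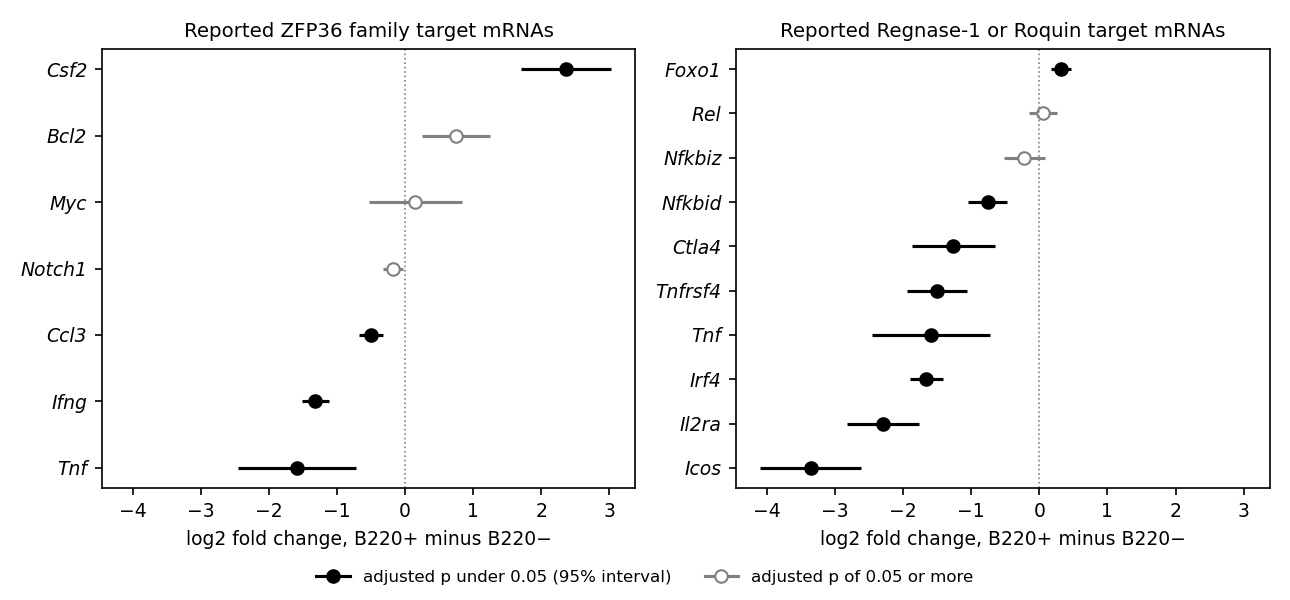
Log2 fold change of B220+ minus B220− cells with its 95% interval (x axis) of the reported targets named in the text, for the ZFP36 family (left) and for Regnase-1 or the roquins (right), black where the edgeR adjusted p was under 0.05 and grey otherwise; Il17a and Il22, with 3 and 2 counts in B220+ cells, are left out. Csf2 lies at 2.36, Tnf at −1.59 and Icos at −3.36.

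Across all tested genes with an annotated 3′ UTR, calls were counted by the 9-base element. Of 804 genes with at least 1 copy, 44 (5.47%) were higher in B220+ cells and 66 (8.21%) lower, with a median log2 fold change of −0.002. Of 10497 genes with no copy, 652 (6.21%) were higher and 651 (6.2%) lower, with a median of −0.006. The 3′ UTRs with a copy were longer, at a median of 2175 bases, against 885 bases without one. Among the 55 genes with at least 3 copies, 3 were higher and 6 lower, and these included Csf2 and Tnf beside Il10ra, the gene of the IL-10 receptor alpha chain, at 10.6 CPM in B220+ cells and 29.6 CPM in B220− cells.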

How the data were processed

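Total RNA of the 6 samples was made into libraries with a directional kit, per the labels' protocols. The submitters' processing notes name HISAT2 2.1.0, featureCounts 1.6.3, Trimmomatic 0.38, FastQC 0.11.7, SAMtools 1.9 and the mm10 build. The table deposited by the authors holds raw read counts for each gene. How strand and multiple matches were counted is not stated in the sources used here. In all, 98.73% of gene models had the coordinates of GENCODE M21, which gave exon lengths and 3′ UTRs.

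All genes were tested with edgeR 4.0.16 in R 4.3.3: TMM scaling, filterByExpr with a minimum count of 10 and a minimum total of 15, a robust quasi-likelihood F test on group alone, Benjamini-Hochberg adjustment over 14722 genes, called under 0.05. Intervals use the total degrees of freedom. DESeq2 1.42.0, RLE scaling, no filter, a replicate block and leaving out each library were the alternatives. The script was tested on simulated data. No library repeated another of its group, with chi-square values of 6.86 to 14.9 per degree of freedom.

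Deviations from the group mean correlated at 0.295, 0.246 and 0.272 between libraries of equal replicate number and at −0.203 to −0.0675 between others. Deviations within a group sum to about 0, so values below 0 between others follow in part from those above 0. The numbers were taken to pair libraries in the replicate block, whereas the main test did not use them. This pairing was inferred from the data and is not stated in the labels.

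The 8 genes and all lists were chosen with earlier results of these data known. Named from each list are Csf2, every called gene (at most 8) and the 3 most abundant uncalled genes; the untested genes named beside them were chosen after their counts were seen. Some genes of the lists count in the totals and are not reported by name here. Transcripts for the 9-base element were those with the longest coding sequence. Correlations use log2 CPM with a prior count of 2.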

Additional observations from a re-analysis of the deposited data

How the results depend on the processing

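Of the 8 genes, 2 were called under RLE scaling, DESeq2, no filter on low counts and the replicate block, and 0 to 1 with 1 library left out. The number of all genes called was 1639, and 2569 with the replicate block, 1621 of them shared, and 969 to 1789 with 1 library left out, the lowest without B220+ replicate 2. The share of all tested genes called was 11.1%, and 11.2% under RLE scaling and 17.5% with the replicate block. With 1 library left out it was 6.51% to 12%. It was 9.98% of 17639 genes under DESeq2 and 8.41% of 26276 genes without the filter. The counts of each list are to be read beside these shares. Among other RNA-binding proteins 1 gene was called, and 2 under DESeq2, 2 without the filter, 3 with the block and 1 to 2 with 1 library left out. For deadenylation 1 was called, and 2 under DESeq2, 3 without the filter, 3 with the block and 1 to 2 with 1 library left out. For decapping 0 were called, 1 without the filter and 0 to 1 with 1 library left out. Of ZFP36 family targets 6 were called, and 10 with the block. Of Regnase-1 or roquin targets 8 were called, and 6 without the filter, which lost Tnf and Ctla4, and 5 to 7 with 1 library left out, the lowest without B220− replicate 3. Of immediate early genes 7 were called, and 11 without the filter, 19 with the block and 4 to 6 with 1 library left out, the lowest without B220+ replicate 1.

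With the longest transcript as length, Zfp36 stood at 127.9 CPM per kilobase in B220+ cells and 169.0 in B220− cells, Rc3h2 at 8.411 and 8.353, and Elavl1 at 17.34 and 17.59, since shorter lengths raise the value. By Spearman correlation, 1 of the 3 genes named beside Elavl1 stayed among its closest 3. No called gene named here changed direction under these alternatives, and the causes of lost calls were not tested. With 3 libraries a group, the intervals of the uncalled genes of the 8 reach as far as −0.35 on the log2 scale. Zc3h12d, with 1667 counts in all, has the least depth of the 8.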

Other observations

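Among genes of the lists that the naming rule did not reach, chosen here after their values were seen, Il10 had 2.16 CPM in B220+ cells and 14.5 CPM in B220− cells (edgeR adjusted p = 0.0528, and 6.53e-09 with the replicate block). Nr4a1, a receptor-induced nuclear receptor, had 282.8, 467.7 and 400.7 CPM in B220+ cells, against 485.7, 667.4 and 616.7 CPM in B220− cells (edgeR adjusted p = 0.180, and 8.08e-07 with the block). Atf3 had 35.8, 81.5 and 59.6 CPM in B220+ cells, against 22.2, 45.8 and 26.0 CPM in B220− cells (edgeR adjusted p = 0.350, and 1.03e-06 with the block), the opposite direction to Zfp36. Replicate 2 was the highest library of Nr4a1 and of Atf3 in both groups.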
